A study of Mus musculus with 8 samples.

Results

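mDC1 was 1 of the 21 clusters that the authors drew from single leukocytes of mouse brain parenchyma, pia and dura, and its members were taken from the deposited annotation, each cell joined by its barcode to the count matrix of its own library. The cluster held 1131 of 32457 annotated cells, of 36854 barcodes in the 8 libraries. The brain contributed 462 of the mDC1 cells (40.8%), the dura 386 (34.1%) and the pia 283 (25.0%). Their levels were set beside those of mDC2 (991 cells), the other dendritic cell cluster, and of Macro_2 (3840 cells), a macrophage cluster, each in the same library.

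All mice were male C57BL/6, aged 10 to 16 weeks, and the leukocytes were sorted as CD45+ cells that an intravenous CD45 antibody given before perfusion had not labelled, which keeps cells in the blood out. Control libraries came from mice without an occlusion (1 each for brain, pia and dura), and the other libraries came 24 h after transient middle cerebral artery occlusion (MCAO; brain replicates 1 and 2, pia, dura) or 72 h after it (brain). The sources used here name the control mice naive in one place and sham-operated in another, and one label of the control pia library, its title, gives brain where the others give pia. Brain at 24 h was the only group with more than 1 library. Cells of replicate experiments were pooled, and the number of mice behind each library is not given in the labels. The p-values therefore measure the spread between these libraries, which may be technical and includes differences of the 24 h change between tissues.

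Dendritic cells take up antigen, move to lymph nodes and present it to T cells. Type 1 conventional dendritic cells (cDC1) carry the dead-cell receptor Clec9a and the chemokine receptor Xcr1 and cross-present antigen to CD8 T cells, type 2 cells (cDC2) carry lectins such as Cd209a, and plasmacytoid dendritic cells carry Siglech and are known for interferon secretion. The Ifitm genes encode small membrane proteins that interferons induce and that keep enveloped viruses from entering the cytosol. After ischemia, dendritic cells are known to collect in the injured brain.

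Of the libraries, 2 stood apart before any comparison of conditions. Brain 24 h replicate 2 and brain 72 h were counted against a shorter gene list (31053 genes, against 32285 in the others). They shared 13 cell barcodes with each other and 0 to 2 with any of the other 6, which shared 12 to 43 in each pair. No mDC1 barcode occurred in more than 1 library. In mDC1, Cd74, the invariant chain of MHC class II, stood at 12492 and 19283 UMIs in each 1000000 (CPM) in this pair of libraries and at 41945 to 78478 CPM in the other 6, so that the replicates of brain at 24 h (58524 and 12492 CPM) did not agree. Atf3, a stress-induced transcription factor, was at 1516 and 1229 CPM in the pair and at 41 to 556 CPM in the others. Comparisons that rest on these libraries are given with and without them. Over all genes, the summed mDC1 depth was 9023 UMIs in control brain, 81622 and 308514 in the 24 h brain replicates and 1249522 in brain at 72 h. It was 128351 (control) and 644497 (24 h) in pia, and 641027 (control) and 566986 (24 h) in dura.

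Of all annotated cells, the share of mDC1 was lowest in the brain without MCAO and highest in the dura without it. It was 0.116% in control brain (5 cells), 0.480% and 1.47% in the 24 h replicates, and 6.35% at 72 h. In pia it was 2.03% in the control library and 5.76% at 24 h. In dura it was 7.29% in the control library and 4.01% at 24 h. The exact (Clopper-Pearson) 95% intervals ran from 0.0378 to 0.271% in control brain, 5.75 to 6.99% in brain at 72 h, 1.54 to 2.62% and 5.05 to 6.54% in pia, and 6.36 to 8.32% and 3.45 to 4.62% in dura, and they cover counting error only. The pia share was thus 3.73 percentage points higher at 24 h and the dura share 3.29 percentage points lower, changes of opposite direction whose difference was not tested. Outside the microglia clusters, which fill most of the control brain library, the share was 0.887% in control brain, 1.39% and 3.47% at 24 h and 7.65% at 72 h, which is then above control dura (7.43%). Between mDC1 and mDC2, mDC1 made up 25.0% of the cells in control brain, 43.1% and 52.6% in the 24 h replicates and 69.6% at 72 h. It made up 33.1% and 54.3% in control and 24 h pia, and 49.9% and 44.9% in control and 24 h dura. Fewer mDC1 cells and more cells of other types cannot be told apart in such shares.

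**Figure D1:**
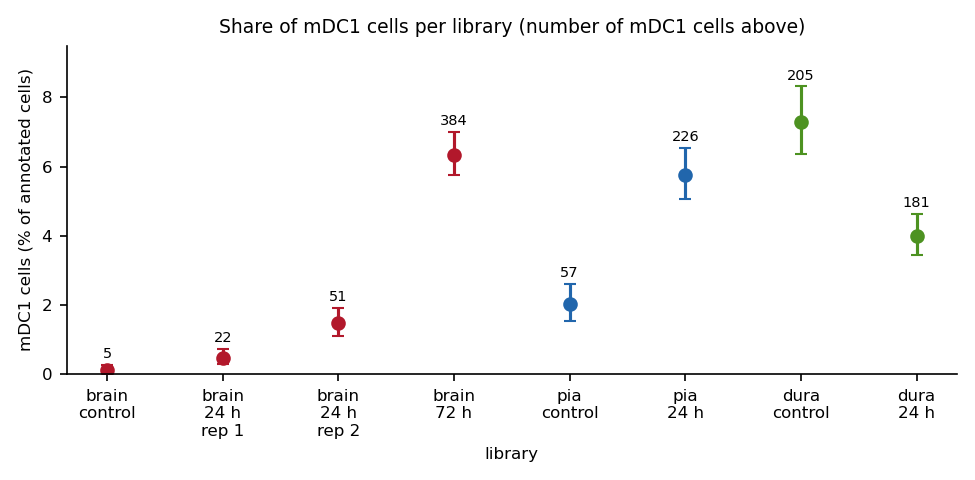
Share of mDC1 among the annotated cells of each library, in percent, with exact 95% intervals (counting error only). The brain libraries rise from 0.116% to 6.35%, pia goes from 2.03% to 5.76% and dura from 7.29% to 4.01%.

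Both markers that gave the cluster its description had UMIs in every library but control brain, while their shares of cells were highest in different libraries. To compare cells of different depth, each cell was thinned to 1000 UMIs, which left 21, 51 and 382 mDC1 cells in the brain libraries after MCAO, 35 and 221 in control and 24 h pia, and 201 and 174 in control and 24 h dura. The 4 cells left in control brain are not read here. A UMI of Clec9a was then found in 0%, 1.96% and 1.31% of the brain mDC1 cells, in 2.86% and 2.26% in pia, and in 8.46% and 6.32% in dura. T cells (the cluster Tc), which should lack the gene and so measure free RNA, showed it in 0 to 1.01% of cells, and mDC2 in 0% in every library. Before thinning, median depths were 2351 to 5857 UMIs in mDC1 and 892.5 to 1935 in Tc of these libraries. The unthinned Clec9a shares were 22.4% and 16.6% in control and 24 h dura and 15.7% in brain 24 h replicate 2. In summed level, Clec9a was at 12.3 and 42.2 CPM in the 24 h brain replicates and at 15.2 CPM at 72 h, beside 0, 3.59 and 0 CPM in Tc and 0, 11.0 and 21.5 CPM in Macro_2 of the same libraries, and at 31.2 CPM in pia at 24 h. Few brain mDC1 cells thus held a Clec9a UMI at equal depth, at shares little above those of Tc and close to that of pia at 24 h. Clec9a was higher in mDC1 than in mDC2 in each of the 7 larger libraries, by 1 UMI against 0 in brain 24 h replicate 1. It is a marker of the cluster, so that is a description and no test.

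Ifitm1 ran the other way. After thinning, 85.7%, 70.6% and 86.9% of the mDC1 cells of the 3 brain libraries after MCAO held a UMI of it, with 95% intervals of 63.7 to 97.0%, 56.2 to 82.5% and 83.1 to 90.1%. The share was 11.4% in control pia (4 of 35 cells) and 78.3% at 24 h (72.3 to 83.5%), and for dura it was 5.47% without MCAO (2.76 to 9.58%) and 17.2% after it (11.9 to 23.7%). In mDC2 the shares were 44.8%, 15.2% and 22.8% in brain, 2.61% and 28.0% in pia, and 6.37% and 14.2% in dura, and in Tc they were 0 to 1.24%. Ifitm1 was thus present in most mDC1 cells of brain and pia after MCAO and in few of control pia and of either dura library.

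**Figure D2:**
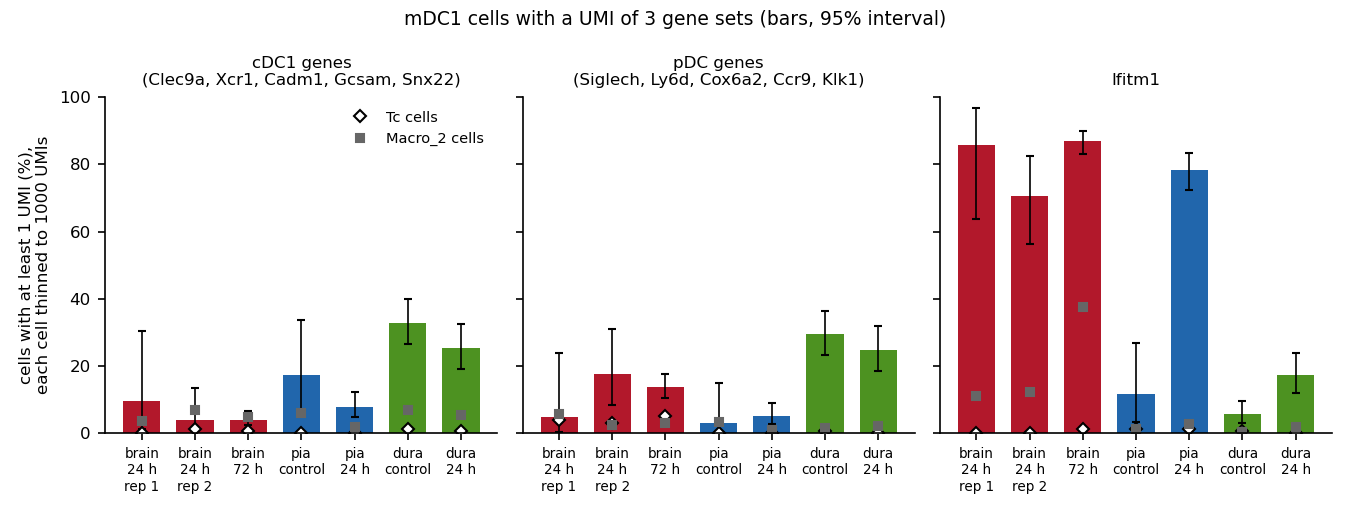
Bars give the percent of mDC1 cells with a UMI of a cDC1 gene, a plasmacytoid gene or Ifitm1 in each of 7 libraries after thinning to 1000 UMIs, with exact 95% intervals, and diamonds and squares give Tc and Macro_2 cells of the same library. Ifitm1 is found in 70.6% to 86.9% of mDC1 cells in brain and pia after MCAO, while the cDC1 and plasmacytoid genes are highest in dura (32.8% and 29.4% in the control library).

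Cells within mDC1 differed from each other along the same genes. Marker groups were put together after the values were seen and carry no test. At least 1 of the cDC1 genes Clec9a, Xcr1, Cadm1, Gcsam and Snx22 was found in 32.8% and 25.3% of thinned mDC1 cells in control and 24 h dura, in 17.1% and 7.69% in pia, and in 3.92 to 9.52% in brain, beside 1.56 to 6.71% of Macro_2 cells. At least 1 of the plasmacytoid genes Siglech, Ly6d, Cox6a2, Ccr9 and Klk1 was found in 29.4% and 24.7% of mDC1 cells in dura, in 2.86% and 4.98% in pia, and in 4.76%, 17.6% and 13.6% in brain. The shares of the same genes in Tc were 0 to 5.03%, with 3.03% and 5.03% in brain 24 h replicate 2 and brain 72 h, and in Macro_2 0.910 to 5.45%. Those of mDC1 in pia and in brain 24 h replicate 1 were near these ranges, which span all libraries. Within control and 24 h pia, summed Ly6d was at 227 and 63.9 CPM in mDC1, 0 and 0 in Tc, and 0 and 0.595 in Macro_2. Siglech was there at 15.7 and 40.5 CPM in mDC1, 11.7 and 0 in Tc, and 36.2 and 10.1 in Macro_2. In dura the cDC1 and plasmacytoid groups fell mostly on different cells, since in the control library 66 cells held a cDC1 gene, 59 a plasmacytoid gene and 6 both, and at 24 h 44, 43 and 5 did. In brain at 72 h they did not, as 8 of the 15 cells with a cDC1 gene also held a plasmacytoid gene, and in pia at 24 h 1 of 17 did. In brain at 72 h, Ifitm1 was found in 21.2% of the 52 cells with a plasmacytoid gene and in 97.3% of the rest, and in brain 24 h replicate 2 in 0 of 9 such cells and in 85.7% of the rest. Without thinning the shares in such cells were 58.8% at 72 h and 38.9% (7 of 18) in replicate 2, and those in the rest 98.9% and 100%. In pia at 24 h, Ifitm1 was found in 35.3% of the 17 cells with a cDC1 gene and in 81.9% of the rest. These shares were 52.2% (24 of 46) and 90.6% without thinning. In brain, unthinned, they were 79.1% and 89.4% at 72 h and 72.7% (8 of 11) and 80% in 24 h replicate 2. Control pia went the other way, at 13.6% (3 of 22) and 5.71%. Cells with none of the 3 features made up 68.6% and 14.9% of mDC1 in control and 24 h pia, 36.3% and 37.9% in dura and 2.36% in brain at 72 h, and without thinning 56.1% and 3.98%, 13.7% and 14.9%, and 0.781%. The summed levels below mix cells with these different marker genes.

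Within libraries mDC1 was set against mDC2 and Macro_2 in the 7 libraries with at least 10 cells of each cluster, with no test, because the clusters were drawn from these same genes. Of 2905 genes that averaged at least 50 CPM in the higher of the clusters, 14 were at least 2-fold higher in mDC1 than in mDC2 in every library (0.482%) and 49 at least 2-fold lower (1.69%). Higher in mDC1 were the cDC1 genes Gcsam, a signalling adaptor (60.9 against 0.427 CPM on average), Ifi205, an interferon-inducible gene (312.8 against 25.2 CPM) and Rab7b, a small GTPase of late endosomes (169.5 against 16.5 CPM). Of 15 listed cDC1 genes, 8 were higher by any amount in all 7 libraries and 0 lower in all. The share of all genes higher by any amount was not counted, so the 8 are a description alone. Irf8 was higher in 6 libraries, Cadm1 and Naaa in 5, and Batf3 (70.5 against 118 CPM) in 3. The plasmacytoid genes Cox6a2, a respiratory chain subunit (128.2 against 0.557 CPM), and Ccr9, a homing chemokine receptor (55.6 against 1.16 CPM), were higher too, as were Plac8 (1045 against 171.3 CPM), Lair1, an inhibitory collagen receptor, Pdia5, Gng12 and Slc44a2. Among the lower genes were several of mature, migrating dendritic cells. Ccr7, the receptor that leads dendritic cells to lymph nodes, averaged 51.7 CPM in mDC1 and 1257 CPM in mDC2, and Fscn1, an actin-bundling protein of mature dendritic cells, 9.94 and 1072 CPM. The chemokines Ccl22 (25.9 against 1633 CPM), Ccl17 (101.6 against 2716 CPM) and Ccl5 (32.8 against 2338 CPM) were also lower in every library, with Il12b, a subunit of interleukin-12, and Cacnb3, Nudt17, Socs2 and Gm13546. Of 15 listed genes of mature dendritic cells, 14 were lower by any amount in mDC1 than in mDC2 in all 7 libraries, as were 7.26% of the 2905 genes. The cDC2 lectins Cd209a (362.8 CPM in mDC1 and 2759 CPM in mDC2 on average) and Mgl2 (68.2 and 1079 CPM) were at least 2-fold lower in every library too. They were the only 2 of 9 listed cDC2 genes lower by any amount in all 7 libraries, and 0 were higher in all. Kmo (92.2 against 68.6 CPM) was higher in mDC1 in 5 libraries and Klf4 (181.5 against 166.5 CPM) in 4.

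Against Macro_2, 25 of 2990 genes were at least 2-fold higher in mDC1 in every library (0.836%) and 50 at least 2-fold lower (1.67%). Ifitm1 was among the higher genes (2918 against 211.3 CPM on average), with Cd7, a lymphoid and dendritic surface protein (378.0 against 5.98 CPM), Ccr9, Cd209d, Klrd1, Cyb561a3, P2ry10, Ly6c2 and Hmgn3. The lower genes held the neutrophil chemokines Cxcl1 and Cxcl2 (104.3 against 4390 CPM for Cxcl2), the monocyte chemokine Ccl2, the platelet factor Pf4, the mannose receptor Mrc1, lysozyme Lyz2 (1955 against 14437 CPM), Pla2g7, Klra2 and F13a1. Apoe, the apolipoprotein of macrophages, averaged 1122 CPM in mDC1 and 21779 CPM in Macro_2, and all 12 listed macrophage genes were lower by any amount in mDC1 in all 7 libraries, as were 9.9% of the 2990 genes. Without brain 72 h the 75 genes of both directions became 140. The listed lymphocyte genes were near 0 in mDC1, as were the neutrophil genes outside dura at 24 h, while macrophage genes (861 to 10622 CPM in sum) and monocyte genes (1785 to 3361 CPM) were not. Igkc, an immunoglobulin gene outside these lists, was at 249 and 374 CPM in mDC1 of control and 24 h dura. The 8 T and NK cell genes summed to 0 to 50 CPM, the 5 B cell genes to 0 to 32 CPM and the 8 neutrophil genes to 0 to 79 CPM except in dura at 24 h (229 CPM, of which S100a8 gave 108). In control pia the macrophage genes C1qa (1221 CPM) and Apoe (4767 CPM) stood above the other mDC1 libraries (50 to 334 and 26 to 913 CPM). Tc cells of control pia held 3742 CPM of Apoe and 263 CPM of C1qa.

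Genes of the MHC class II pathway summed to more in mDC1 than any other listed group, from 32259 CPM in brain 24 h replicate 2 to 133834 CPM in control pia. H2-Ab1, a chain of MHC class II, was at 5829 CPM in brain 24 h replicate 2 and at 8678 to 20414 CPM in the other 7 libraries. Flt3, the growth factor receptor of dendritic cells, was at 88 to 240 CPM in the 7 larger libraries, and Irf8, the transcription factor of cDC1 and plasmacytoid cells, at 246 CPM (brain 24 h replicate 1) to 1257 CPM (control dura). Cd83, a maturation marker that steadies MHC class II at the surface, was at 162 to 665 CPM in the brain libraries after MCAO and at 1516 to 3115 CPM in pia and dura. Il1b was between 313 and 779 CPM in the 7 larger libraries.

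Of 7 Ifitm genes, 6 had a UMI in mDC1, and the 4 that passed the filter on low counts lie together on chromosome 7 (GRCm38, chr7:140954837-141017924, 63.1 kb): Ifitm2 (ENSMUSG00000060591, minus strand), Ifitm1 (ENSMUSG00000025491, plus strand), Ifitm3 (ENSMUSG00000025492, minus strand) and Ifitm6 (ENSMUSG00000059108, minus strand). The promoters of Ifitm1, Ifitm2 and Ifitm3, the most abundant of them, are shown because the genes are neighbours that were higher in mDC1 of pia at 24 h than of control pia. Each sequence is the RefSeq window of GRCm38.p6 from 250 bases before to 50 bases after the gene's start, 5′ to 3′ on the gene's strand. The RefSeq starts of all 4 genes lie inside the genes as the annotation behind the region above bounds them. Those of Ifitm1 and Ifitm6 lie farther inside than those of Ifitm2 and Ifitm3, and other starts were not searched. Capitals mark matches to GAAA, any 2 bases and GAAA again, the core of an interferon-stimulated response element, searched on both strands. The windows are chr7:140967826-140968125 for Ifitm1, chr7:140955912-140956211 for Ifitm2 and chr7:141010695-141010994 for Ifitm3.
Ifitm1: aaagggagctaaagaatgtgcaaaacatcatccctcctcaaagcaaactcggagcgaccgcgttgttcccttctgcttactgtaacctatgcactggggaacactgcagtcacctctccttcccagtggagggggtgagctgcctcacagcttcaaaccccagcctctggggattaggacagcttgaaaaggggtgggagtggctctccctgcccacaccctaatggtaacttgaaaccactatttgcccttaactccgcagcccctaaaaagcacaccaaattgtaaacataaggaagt
Ifitm2: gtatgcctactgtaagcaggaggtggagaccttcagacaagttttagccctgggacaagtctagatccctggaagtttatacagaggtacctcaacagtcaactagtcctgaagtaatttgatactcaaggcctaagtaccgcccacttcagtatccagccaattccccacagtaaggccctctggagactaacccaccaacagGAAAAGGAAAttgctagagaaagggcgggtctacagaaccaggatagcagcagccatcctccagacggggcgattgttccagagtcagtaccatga
Ifitm3: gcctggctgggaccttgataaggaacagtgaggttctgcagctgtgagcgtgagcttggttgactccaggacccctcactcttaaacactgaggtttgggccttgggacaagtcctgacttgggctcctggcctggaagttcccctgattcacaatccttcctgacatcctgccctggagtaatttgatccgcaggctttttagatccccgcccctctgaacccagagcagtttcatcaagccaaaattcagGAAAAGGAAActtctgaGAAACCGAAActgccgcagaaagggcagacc
Ifitm3 held 2 matches, Ifitm2 1, and the windows of Ifitm1 and Ifitm6 0. Of 32851 RefSeq windows of the same length, 1131 (3.443%) held the letters. A match is a description of the letters and not of a bound site.

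Ifitm1 in mDC1 was at 55 CPM in control pia and 3716 CPM in pia at 24 h, and at 81 CPM in control dura and 585 CPM in dura at 24 h. The brain libraries after MCAO held 4088 and 3299 CPM at 24 h and 8601 CPM at 72 h, and 0 of the 8988 UMIs of control brain mDC1 were Ifitm1, which at this depth allows up to 3 counts. No library after MCAO overlapped a control library, and dura at 24 h was the lowest of those after MCAO. Ifitm2 was at 1182 and 5284 CPM in control and 24 h pia, 1130 and 2336 CPM in dura, and 1974 to 5011 CPM in brain after MCAO. Ifitm3 was at 900 and 4000 CPM in pia, 743 and 774 CPM in dura, and 3280 to 3700 CPM in brain. Ifitm6, a myeloid member, was at 47 and 533 CPM in pia, 50 and 71 CPM in dura, and 331 to 714 CPM in brain. On the log2 scale, with 0.5 UMIs added to each sum, the 24 h difference of Ifitm1 was 5.98 in pia and 2.83 in dura, and that of Ifitm3 was 2.15 in pia and 0.06 in dura.

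**Figure D3:**
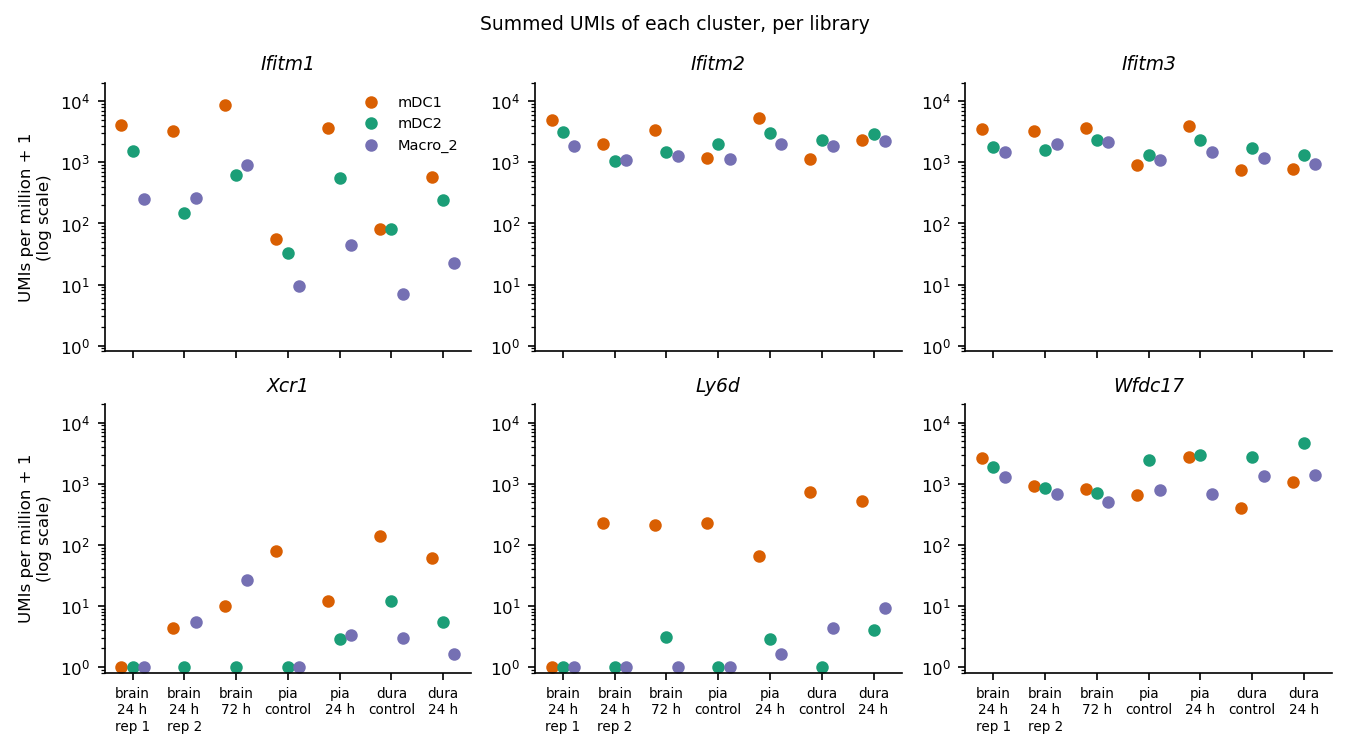
Levels of 6 genes in mDC1, mDC2 and Macro_2 of 7 libraries, as CPM + 1 on a log axis, 1 point for each cluster and library. Ifitm1 in mDC1 goes from 55 to 3716 CPM in pia and from 81 to 585 CPM in dura, while Xcr1 is lower after MCAO in both.

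In a fit over the 7 libraries with at least 10 mDC1 cells, with terms for tissue and condition (edgeR's quasi-likelihood test, Benjamini-Hochberg adjusted p under 0.05 and at least 2-fold), no gene was called higher at 24 h and 1 of 7502 lower (0.0133%). That gene, Cxcl13, the B cell attracting chemokine, held 105 UMIs in control pia, all in 1 cell, and 0 UMIs in every library after MCAO. In all 126 genes had an unadjusted p under 0.05, 64 higher and 62 lower. Ifitm1 changed by 4.33 ± 0.83 (log2, SE) with an adjusted p of 0.283 by edgeR, so it did not pass. DESeq2 did not call Cxcl13, and its 1 call was Ifitm1, higher at 24 h by 4.26 ± 0.71 (adjusted p of 1.2e-05). Ifitm1 is also a marker of the cluster, so which cells count as mDC1 can depend on its level, and the p-values and calls of Ifitm1 here and below do not allow for that. Of 4 tested Ifitm genes, 3 had an unadjusted p under 0.05, all higher, and the median over the 4 was 1.76, beside 0.08 over all genes. Of 15 cDC1 genes, 3 had an unadjusted p under 0.05, all lower (median -0.64). On simulated libraries of the same sizes this fit found 10% of 200 genes changed 4-fold, so a call is rare at this size. The count without control pia, without pia 24 h or without brain 72 h was 0, and without brain 24 h replicate 1 or replicate 2 it was 60 or 69.

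The spread in that fit includes the difference between the 24 h brain replicates, 1 of which has the shorter gene list. A second fit, chosen after the data were seen, used the 5 libraries of the longer list alone. It rests on pia and dura, since brain 24 h replicate 1 is then the only brain library. No group in it has more than 1 library, and it leaves 1 residual degree of freedom. Its p-values and SEs therefore rest on how far the pia and dura changes differ, with the spread shared over genes, and not on replicates. There, 36 of 6406 genes were called higher at 24 h (0.562%) and 51 lower (0.796%), 1.36% in all. Of these, 33 and 50 had the same direction in pia and in dura. The fit has 1 condition term for both tissues, so the choice of genes favours such agreement, and it is not read as a result. The same libraries gave 0 calls with DESeq2, 4 with scaling by library size alone and 10 after thinning to 1000 UMIs, so every gene below was lost with DESeq2.

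All 4 tested Ifitm genes were called higher in the 5 libraries, Ifitm1 by 4.07 ± 0.44 (log2, SE), Ifitm2 by 1.55 ± 0.30, Ifitm3 by 1.04 ± 0.30 and Ifitm6 by 1.71 ± 0.36. The list of type I interferon response genes as a whole did not move with them. Of its 11 tested genes, Ifitm3 was called higher and 2 were called lower. Of these, Irf7, the transcription factor that amplifies interferon, fell by 1.11 ± 0.30 (219 and 154 CPM in control and 24 h pia, 282 and 96 CPM in dura). The list median was -1.07, beside 0.01 over all genes. Iigp1 and Irgm1, interferon-inducible GTPases, were also lower (Irgm1 at 23 and 4.68 CPM in pia and 62.7 and 3.54 CPM in dura), as was Cxcl9, an interferon-gamma induced chemokine (58.0 and 0 CPM in dura).

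Of the cDC1 list, 3 of 15 genes were called lower and 0 higher in the 5 libraries. Xcr1 was at 78 and 11 CPM in control and 24 h pia and at 136 and 60 CPM in dura. Cadm1, an adhesion molecule of cDC1, was at 196 and 37 CPM in pia and at 180 and 101 CPM in dura, and Ppt1, a lysosomal thioesterase, at 775 and 221 CPM in pia and at 903 and 742 CPM in dura. Clec9a, at 63 and 31 CPM in pia and at 102 and 64 CPM in dura, was not called. Ly6d of the plasmacytoid list was called lower, and Adgre1 and P2ry12 of the macrophage and microglia lists, which stood higher in control pia (133 and 110 CPM) than in the other libraries of the fit. The 29 Ly6d UMIs of control pia came from at most 2 of 57 mDC1 cells.

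Among single genes called higher in the 5 libraries, chosen after their values were seen, were C-type lectins. These were Clec4n, which binds fungal mannans (16 and 212 CPM in control and 24 h pia, 13 and 41 CPM in dura), and Clec4e, its neighbour that senses dead cells (8 and 50 CPM in pia, 0 and 28 CPM in dura). Il1rn, the interleukin-1 receptor antagonist, was at 8 and 86 CPM in pia and at 0 and 7 CPM in dura, and Ccl17 was at 23 and 348 CPM in pia and at 22 and 172 CPM in dura. Of 11 tested genes of hypoxia and glycolysis, the enzymes Eno1 (1.07 ± 0.29) and Pkm (1.09 ± 0.29) were called higher, with Hilpda, a hypoxia-induced lipid droplet protein outside that list (2.05 ± 0.46). Beside Clec4e, the highest fitted changes were those of Asns, the asparagine synthetase (0 and 126 CPM in pia, 0 and 3.54 CPM in dura), Ctla2a (0 and 4.68 CPM in pia, 3.13 and 106.3 CPM in dura) and Car2, a carbonic anhydrase (0 and 9.36 CPM in pia, 3.13 and 58.5 CPM in dura). At 24 h Asns was thus higher in pia than in dura, and Ctla2a and Car2 higher in dura than in pia. Several of these levels rest on few UMIs. In mDC1 of control pia 1 UMI was 7.83 CPM, so Clec4e, Il1rn and Hilpda rested there on 1 UMI each, and Clec4n on 2. In mDC1 of dura at 24 h 1 UMI was 1.77 CPM. The most lowered, after Cxcl13 and Cxcl9, were Hpgd, which breaks down prostaglandins (109.6 and 3.12 CPM in pia, 14.1 and 1.77 CPM in dura), Iigp1 and Irgm1.

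**Figure D4:**
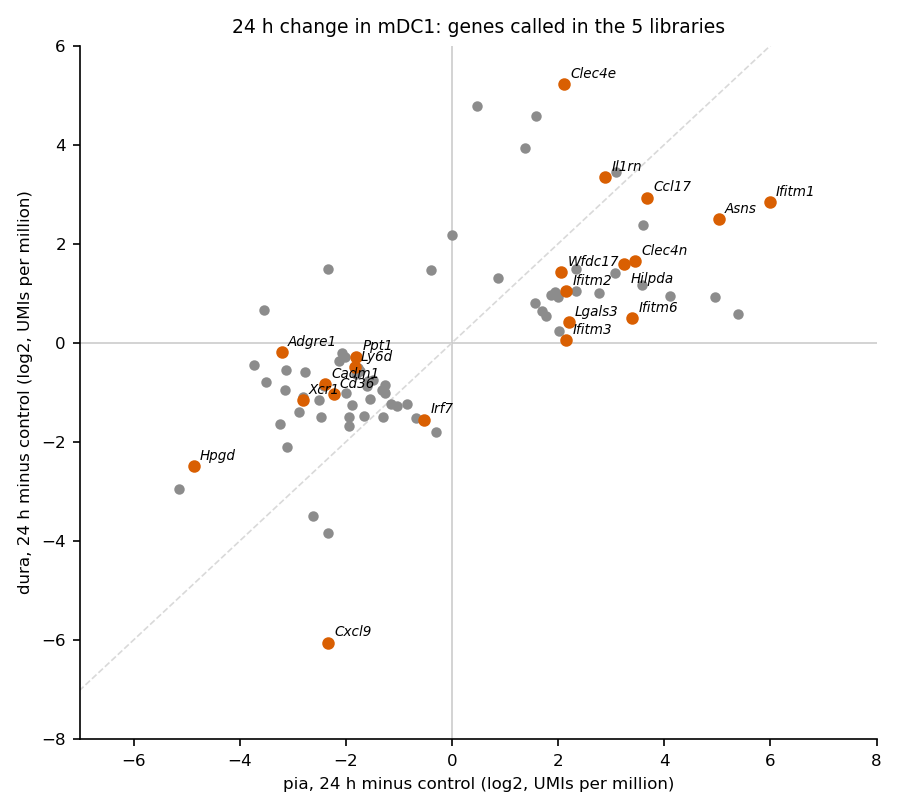
Log2 difference of CPM in mDC1 (0.5 UMIs added to each summed count) between 24 h and control, in pia (horizontal axis) and in dura (vertical axis), 1 point for each gene called in the 5 libraries of the longer gene list, with Cxcl13 left out because its control pia UMIs came from 1 cell. Ifitm1 lies at 5.98 and 2.83, and Xcr1 at -2.81 and -1.17.

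Whether the 24 h change of mDC1 differed from that of its neighbours was tested as an interaction within libraries. Against mDC2, 8 of 7990 genes changed more towards higher values in mDC1 (0.1%) and 7 more towards lower values (0.0876%), 0.188% in all. The metallothionein genes Mt1 (1.44 ± 0.24 log2, SE) and Mt2 (1.86 ± 0.38), whose products bind zinc, were among the former (edgeR's quasi-likelihood test, adjusted p of 7.86e-06 and 0.00113). Mt1 went from 618 to 734 CPM in mDC1 of pia and from 492 to 1512 CPM in dura, while in mDC2 it went from 4166 to 1957 CPM in pia and from 4070 to 4499 CPM in dura. Ifitm2 (1.15 ± 0.22) went from 2023 to 3065 CPM and from 2350 to 2961 CPM in mDC2 of pia and dura, a smaller change than in mDC1. Clec4n, Hilpda, Wfdc17, Plscr1 and Lgals3, the galectin 3 gene, were the other 5, with differences of 1.08 to 2.03. The most lowered was Fscn1 (-3.99 ± 0.67), which went from 542 to 1261 CPM in mDC2 of pia and from 563 to 1145 CPM in dura. In mDC1 it rested on 5 UMIs in control pia and 1 at 24 h, and on 14 and 3 in dura. Tmcc3, Bcl2l1, a survival gene, the costimulator Cd86 (-1.31 ± 0.32) and Tmem176a were also lower. Cd86 went from 162 to 373 CPM in mDC2 of pia and from 321 to 284 CPM in mDC1. The complement genes C1qa and C1qc complete the 7. Among mDC1 libraries control pia held the highest level of both, and without control pia or pia 24 h both differences turned direction.

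Against Macro_2, 5 of 8567 genes changed more towards higher values in mDC1 (0.0584%) and 4 more towards lower values (0.0467%), 0.105% in all. Of these 5, 3 were Ifitm genes, Ifitm1 (2.39 ± 0.43), Ifitm2 (1.17 ± 0.27) and Ifitm3 (1.15 ± 0.28), by edgeR's quasi-likelihood test. In Macro_2, Ifitm1 went from 8.32 to 42.8 CPM in pia and from 5.91 to 21.5 CPM in dura, and was at 246 to 899 CPM in brain after MCAO, so it was higher after MCAO there too but at a lower level. Against mDC2 the difference of Ifitm1, 1.52 ± 1.96, was not called (adjusted p of 1 by edgeR), and in mDC2 it went from 31.9 to 556 CPM in pia and from 81.5 to 238 CPM in dura. Wfdc17, a secreted protease inhibitor (1.93 ± 0.29), was at 658 and 2751 CPM in mDC1 of control and 24 h pia and at 777 and 672 CPM in Macro_2, and Mt2 (1.76 ± 0.43) was the other higher gene. The lower genes were Spp1, osteopontin (-2.37 ± 0.43), Hpgd (-3.28 ± 0.79), Jaml (-1.63 ± 0.40) and Cxcl13. Spp1 went from 70.3 to 605 CPM in Macro_2 of pia and from 117 to 65.5 CPM in mDC1.

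The cells were clustered on genes such as Ifitm1, so which cells count as mDC1 can itself depend on these levels, and the interaction p-values do not allow for that. Both interaction counts hung on the meninges, where the controls are. DESeq2 called 0 genes in either. Without control pia or pia 24 h each fell to 1, without control dura or dura 24 h they were 30 and 23, and with pia and dura alone they were 0 and 14. Without the 2 libraries of the shorter gene list they were 17 and 12. With pia and dura alone none of these differences turned its direction, but 0 of the 15 against mDC2 and 7 of the 9 against Macro_2 still passed.

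**Figure D5:**
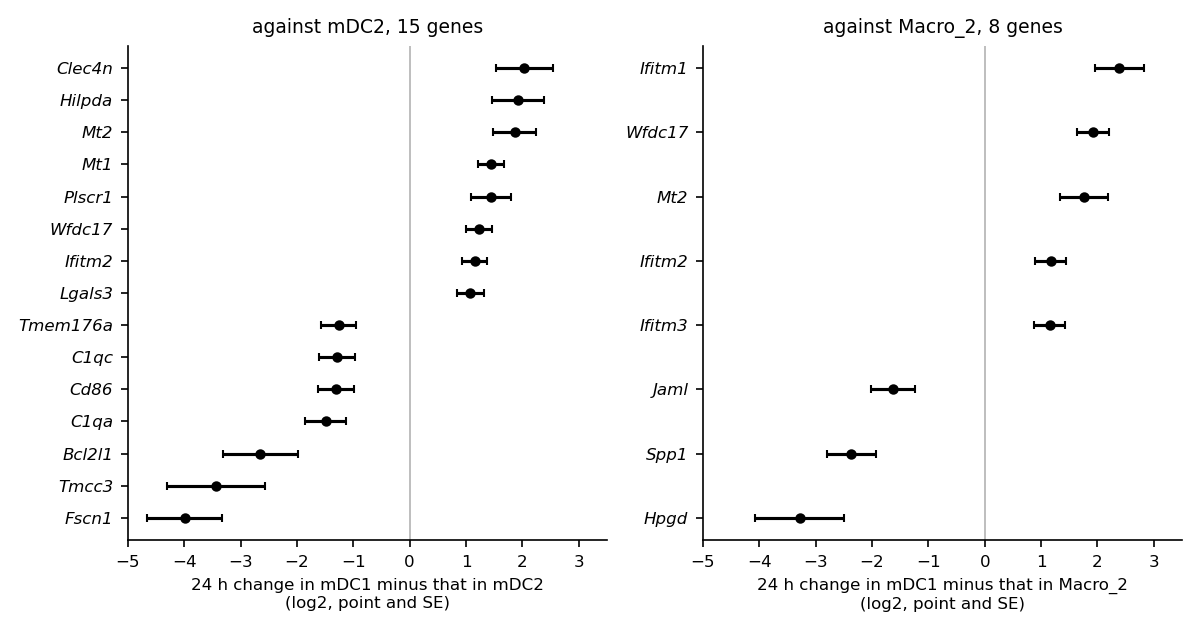
Difference between the 24 h change in mDC1 and that in mDC2 (left) or Macro_2 (right), as log2 with SE, for the genes called by edgeR. Cxcl13 is left out because its control pia UMIs came from 1 mDC1 cell, and Ifitm1 lies at 2.39 against Macro_2 and Fscn1 at -3.99 against mDC2.

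Between the border tissues, mDC1 of dura held more of the plasmacytoid genes than mDC1 of pia. In the fit over 7 libraries, 3 genes were called (0.04%), 2 higher in dura (0.0267%) and 1 lower (0.0133%), by edgeR with an adjusted p of 0.0232 for each. The higher genes were immunoglobulin constant regions, Igkc (3.85 ± 0.60) and Iglc1, and the lower was Cxcl13. Igkc was at 249 and 374 CPM in mDC1 of control and 24 h dura and at 16 and 30 CPM in pia, but it was at 161 and 308 CPM in mDC2, 170 and 314 CPM in Macro_2 and 477 and 518 CPM in Tc of the same dura libraries. Iglc1 had 41 and 102 UMIs in dura mDC1 and 0 in pia mDC1, with 64.2 and 181 CPM in mDC1 beside 63.7 and 182 CPM in Macro_2. These transcripts were therefore at like levels in cells of other types in dura. DESeq2 called 0 genes, and 212 had an unadjusted p under 0.05.

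Of 8 plasmacytoid genes, 6 had an unadjusted p under 0.05 in that fit, all higher in dura (median 2.22, beside 0.09 over all genes). Siglech was at 279 and 170 CPM in control and 24 h dura and at 16 and 41 CPM in pia. Ly6d was at 730 and 521 CPM in dura and at 227 and 64 CPM in pia, and Cox6a2 at 280 and 225 CPM in dura and at 94 and 50 CPM in pia. In control pia only 2 of 57 mDC1 cells held any UMI of Siglech, Ly6d, Cox6a2, Ccr9 or Klk1. Of the 8 genes, 7 were higher in both dura libraries than in either pia library, as were 18% of all 7502 genes. Of 15 cDC1 genes 8 were, and 1 had an unadjusted p under 0.05 in the fit over 7 libraries. Cadm1 was higher in control pia (196 CPM) than in either dura library (180 and 101 CPM). In the 5 libraries of the longer list, 76 of 6406 genes were called higher in dura (1.19%) and 93 lower (1.45%), 2.64% in all. Of the 8 plasmacytoid genes 5 were called higher, Siglech by 2.62 ± 0.36, Ly6d by 2.40 ± 0.31, Ccr9 by 2.06 ± 0.50, Cox6a2 by 1.96 ± 0.33 and Klk1 by 4.63 ± 0.92, together with Spib (2.74 ± 0.69), a transcription factor of plasmacytoid cells. Of the 15 cDC1 genes 4 were called higher, Xcr1 by 1.59 ± 0.42, Irf8 by 1.06 ± 0.29, Ifi205 by 1.05 ± 0.29 and Ppt1 by 1.00 ± 0.29. Higher in pia were 3 of 10 tested macrophage genes, Adgre1, Csf1r and Fcgr1, and the Ifitm genes Ifitm3 (-1.34 ± 0.31) and Ifitm6 (-1.88 ± 0.37). The highest fitted differences were those of Iglc1, Iglc2 (28.2 and 26.6 CPM in control and 24 h dura), Ighg1 and Jchain (61.1 and 51.4 CPM), genes of antibody chains and their joining protein, and of Jakmip1 (29.8 and 30.1 CPM), each at 0 to 1.56 CPM in pia. The lowest were those of Cxcl13, Asns, Ptgds, a prostaglandin synthase (62.6 and 21.8 CPM in control and 24 h pia), Gk, glycerol kinase (62.6 and 14.0 CPM), and C3ar1, a complement receptor (133 and 10.9 CPM), the latter 3 at 0 to 5.32 CPM in dura. The neutrophil genes S100a8 and Retnlg were higher in dura, where Tc cells also held S100a8 (69.0 and 147 CPM, beside 37.6 and 108 in mDC1). In these libraries DESeq2 called 2 genes and scaling by library size alone 25. Without control dura the count over 7 libraries was 0 and without brain 24 h replicate 1 it was 140.

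The 3 brain libraries after MCAO held less of the cDC1 genes in mDC1 than the pia and dura libraries, at 1179 to 1361 CPM summed over the list against 1662 to 4947 CPM, while the 5 cells of control brain held 2893 CPM. The listed cDC2 genes summed to 1034 to 1383 CPM in brain after MCAO, 501 and 1737 CPM in control and 24 h pia, and 860 and 471 CPM in dura. In share of cells with a cDC1 gene, brain and pia at 24 h overlapped. Xcr1 was at 0 to 8.82 CPM in the brain libraries after MCAO, and at 10.9 to 136 CPM in pia and dura. Cadm1 was at 0 to 10.4 CPM in brain and at 37.4 to 196 CPM in pia and dura, and Naaa, a lysosomal amidase, at 63 to 172 CPM in brain and at 274 to 882 CPM in the meninges. Of 15 cDC1 genes, 8 were lower in each of the 3 brain libraries than in any of pia and dura, as were 7.62% of all 7502 genes. In the fit over 7 libraries 0 of 7502 genes were called (0%), with 758 at an unadjusted p under 0.05 and 3 called by DESeq2. Of the 15 cDC1 genes 8 had an unadjusted p under 0.05, all lower in brain (median -2.03, beside -0.03 over all genes), and 0 of the 8 plasmacytoid genes did. Of 8 cDC2 genes 2 did, both higher in brain (median 1.08). Cadm1 had an adjusted p of 0.125 by edgeR. The count was 1692 without brain 24 h replicate 1, which leaves the brain with the libraries of the shorter gene list alone. In that fit the tissue and the set of libraries cannot be told apart. Without those libraries the brain is brain 24 h replicate 1 alone, whose cDC1 genes summed to 1305 CPM, below each pia and dura library.

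From 24 h to 72 h in brain, the mDC1 share was higher, and 0 of 7502 genes were called (0%), 139 at an unadjusted p under 0.05 and 0 called by DESeq2. The level of Ifitm1 was highest at 72 h, and its difference of 1.44 ± 0.79 did not pass (adjusted p of 1 by edgeR). Ccl17 was at 12.3 and 133 CPM in the 24 h replicates and at 0.802 CPM at 72 h, with an adjusted p of 0.906 by edgeR. Ccl22 was at 74 and 26 CPM at 24 h and at 0 CPM at 72 h. Apoe was at 86 and 26 CPM at 24 h and at 798 CPM at 72 h, where Tc cells held 622 CPM. The 72 h group was 1 library, and on simulated libraries this fit found 1% of the genes changed 4-fold. Without brain 24 h replicate 2 the count was 736, all of it between libraries of the longer and shorter gene lists.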

How the data were processed

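Per the labels, the reads were aligned and counted with Cell Ranger 6.0 against mm10, and the deposited matrices hold UMI counts per gene and cell, with no normalization. The authors clustered the cells after removing doublets, and their deposited annotation gave the cluster and library of each cell. The matrices were summed per library and cluster over the 30406 genes shared by all libraries, and levels are UMIs in each 1000000 of those sums (CPM). Libraries with at least 10 mDC1 cells were tested (7 of 8). Tests used edgeR 4.0.16 in R 4.3.3 (filterByExpr, TMM, robust quasi-likelihood), with DESeq2 1.42.0 as an alternative, and a gene was called at a Benjamini-Hochberg adjusted p under 0.05 and at least 2-fold. Libraries were the replicates, never cells. Within-library ratios used 0.5 UMIs added to each sum and genes averaging at least 50 CPM in the higher cluster. Shares of cells with a UMI were taken after thinning each cell to 1000 UMIs, leaving out shallower cells, with exact 95% intervals, which like the limit of 3 counts for a 0 cover counting error only. Of 247 genes in 24 lists, 243 matched. The genes named were Ifitm1, Clec9a, list members, the 5 highest and 5 lowest called in each test and the 10 on either side with the most extreme smallest ratio within libraries, and others were named after their values were seen. The members and lists were chosen with earlier results of these data known. Each fit was tested on simulated data. Files were read with Python 3.11.15, pandas 2.3.3, numpy 2.4.6 and scipy 1.17.1, and figures drawn with matplotlib 3.10.9. Results for some genes are not reported here.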

Additional observations from a re-analysis of the deposited data

Results flagged for a closer look

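The 24 h change of these genes differed between mDC1 and mDC2 by the interaction test. On the log2 scale, mDC1 minus mDC2, the differences were 2.03 for Clec4n, 1.92 for Hilpda, 1.86 for Mt2, 1.44 for Mt1, 1.44 for Plscr1, 1.23 for Wfdc17, 1.15 for Ifitm2 and 1.08 for Lgals3. They were -3.99 for Fscn1, -3.44 for Tmcc3, -2.65 for Bcl2l1, -1.49 for C1qa, -1.31 for Cd86, -1.29 for C1qc and -1.26 for Tmem176a.

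Against Macro_2 the differences were 2.39 for Ifitm1, 1.93 for Wfdc17, 1.76 for Mt2, 1.17 for Ifitm2, 1.15 for Ifitm3, -3.28 for Hpgd, -2.37 for Spp1 and -1.63 for Jaml. The fitted value of Cxcl13, -16.74, is no measure of size, since its 105 UMIs in mDC1 of control pia came from 1 cell.

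The share of mDC1 moved by 3.73 percentage points in pia and by -3.29 percentage points in dura between control and 24 h, in opposite directions. The difference was not tested.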

How the results depend on the processing

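Counts of called genes moved with the setting. For 24 h against control (1 gene), they were 2 with library size alone, 3 with no filter, 60 with at least 30 cells, 2 thinned, 0 without the tissue term, 79 with pia and dura only, and 0 to 69 with 1 library left out. For 72 h against 24 h (0) they were 1, 7, 11 and 1 with library size alone, no filter, at least 30 cells and thinning, and 0 to 736 with 1 library left out. For dura against pia (3) they were 0 with DESeq2, 12 with no filter, 140 with at least 30 cells, 8 thinned, 0 with no condition term, 159 with pia and dura only, and 0 to 155 with 1 library left out. For brain against meninges (0) they were 3 with DESeq2, 17 with library size alone, 39 with no filter, 1692 with at least 30 cells, 19 thinned, 1106 with no condition term, and 0 to 1692 with 1 library left out. For the interaction with mDC2 (15) they were 0 with DESeq2, 6 with no filter, 4 thinned, 31 with no cluster by tissue term, 0 with pia and dura only, and 1 to 30 with 1 library left out. For that with Macro_2 (9) they were 0, 5 thinned, 1 with no cluster by tissue term, 14 with pia and dura only, and 1 to 23. In alternatives chosen after seeing the data, a term for the shorter gene list gave 46, 8, 135 and 42 for the first 4 comparisons and 16 and 11 for the interactions, and leaving its 2 libraries out gave 87, 169 and 44. In those 5 libraries, the 87 genes at 24 h became 0 with DESeq2, 4 with library size alone, 47 with no filter and 10 thinned, and the 169 between dura and pia became 2 with DESeq2, 25 with library size alone and 42 thinned. The 72 h comparison could not be fitted without brain 72 h or without the 2 libraries.

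Genes at least 2-fold apart within libraries, with 1 library left out, numbered 63 to 83 against mDC2 and 74 to 140 against Macro_2. Share changes in percentage points were 4.18 for brain at 24 h (0.859) of dendritic cells and macrophages alone, 1.54 outside microglia, and 0.364 to 1.35 with 1 library left out. From 24 to 72 h (5.37) they were 6.11 at 1000 UMIs or more, 4.38 of all barcodes, 9.89 of dendritic cells and macrophages, and 4.88 to 5.87 with 1 library left out. In pia (3.73) they were 5.32 and 6.27. The median Clec9a share of 2.26% was 10.5% without thinning. Without control pia or pia 24 h, the interaction of C1qa with mDC2 turned to 0.28 and 0.29 and that of C1qc to 0.021 and 0.035, and with 1 library left out they ranged down to -2.76 and -2.29. The value of Cxcl13, mDC1 dura against pia, was 2.5627e-15 without control dura and -6.998 without dura 24 h. With DESeq2 in the 5 libraries, Iglc1 at 24 h turned to -0.45 and Glipr2 between dura and pia to 0.040. The cause of these moves was not tested. The labels number replicates for brain at 24 h alone and tie no number to a mouse or batch, so groups could not be paired. The interactions compare clusters of the same libraries. Depth limits control brain most, with 5 mDC1 cells.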

Other observations

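Other gene groups in mDC1, in the 5 libraries of the longer gene list, held few calls at 24 h by edgeR, where 0.562% of all 6406 genes were called higher and 0.796% lower. None of 12 tested genes of the MHC class II pathway was called (0; median log2 change -0.09), none of 13 of MHC class I and cross-presentation (0; -0.36), none of 8 of costimulation (0; -0.37), none of 12 dendritic cell transcription factors (0; -0.09) and none of 10 immediate early and heat shock genes (0; -0.31). Their unadjusted p was under 0.05 for 1, 3, 1, 4 and 4 genes, and DESeq2 called 0 genes of any kind. Of 12 pattern recognition receptors 2 were called higher and 1 lower, of 13 chemokines 1 higher and 2 lower, and of 6 cytokines 1 higher. Of 4 microglia genes 2 were called lower (median -2.35), beside 0.01 over all genes. None of 7 cDC2 genes was called (0; median 0.31).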
